A study of Mus musculus with 35 samples.

Results

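The regions described here are 1299 peaks of HA-tagged NELFA whose summits lay just inside a single protein-coding gene of mouse embryonic stem cells. NELFA is one of the proteins that make up the negative elongation factor, NELF. They were selected on their position alone. A peak was taken when it lay on an autosome in a fixed 1 Mb window with fewer than 30 peaks, its summit was within 500 bp of a gene's start or end and on the gene's side, and no boundary of another protein-coding gene was within 1 kb. The deposited list held 59485 peaks, 23044 of them in autosomal windows of that kind. Peak positions and the number of peaks per window therefore chose the members, and their distances, folds and widths are given as a description, since they come from the same comparison of precipitate and input.

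The ChIP-seq cells were E14 mouse embryonic stem cells grown in 2i medium, with a transgene for NELFA fused to Strep and HA tags that doxycycline switches on. All 7 ChIP libraries came from cells given doxycycline at 0.4 µg/ml for 16 h: 3 precipitates with HAantibody1, 1 with HAantibody2 and 3 inputs, from 3 replicates. The series lists no uninduced ChIP library, so HA signal without induction could not be compared. The tagged protein came from the transgene in addition to the native gene. The 20 RNA-seq and 8 ATAC-seq libraries of the series were not analysed here. The 7 libraries are represented by 1 list without a value per library, so no peak has a replicate error and the depth is unknown. Counts of peaks or genes measure this list and not the spread between cultures.

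NELF acts on RNA polymerase II soon after it leaves the promoter. Together with DSIF it holds the polymerase in a pause a short way into the gene, until the kinase P-TEFb phosphorylates the paused complex and NELF dissociates. A NELF subunit is therefore known mainly from the first stretch of transcribed DNA, downstream of the start site. A peak at the far end of a gene is a different place, where transcripts are cleaved and polyadenylated, and the direction of transcription is needed to tell the 2 ends apart.

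The direction of transcription was taken from the RefSeq promoter table for GRCm38.p6, the assembly that mm10 names. It covered 1053 of the 1299 members (81.1%, 95% Wilson interval 78.8 to 83.1%), and the other 246 were left without a direction. Of the oriented members, 1023 (97.2%, 96 to 98%) lay at the start of the gene and 30 (2.85%, 2 to 4.04%) at its end. The mirror-image peaks, just outside a single gene in the same windows, were far fewer (325) and lay at the start in 238 of 255 oriented cases (93.3%, 89.6 to 95.8%). The inside peaks were at starts more often than the outside peaks (odds ratio 2.44, two-sided Fisher exact p = 0.011 after Benjamini-Hochberg adjustment for 3 tests). This difference no longer passed when the −log10 q had to reach 4 (97.4% against 93.9%, unadjusted Fisher exact p = 0.0757) or with a fold at or above the median of the list (97.2% against 94.2%, unadjusted Fisher exact p = 0.0825).

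The stretch of promoter before the start shows the setting of the strongest start peaks. Shown, to cover several gene roles, are 7 of the 10 start members of highest fold that have a listed start within 100 bp of the summit, each from 120 bases before to 30 bases from the listed start onward, 5′ to 3′ on the gene's strand, from RefSeq (GRCm38.p6). Capitals mark matches, on either strand, to 10 short elements whose letters are given with the promoter results. Polr2a encodes the largest subunit of RNA polymerase II, Rtn3 a reticulon of the endoplasmic reticulum, Rsrp1 an arginine- and serine-rich protein, Srsf5 a splicing factor, Eef1a1 the elongation factor that carries aminoacyl-tRNA to the ribosome, Rps12 a protein of the small ribosomal subunit, and Ctnnb1 the adhesion and Wnt-pathway protein β-catenin.
Polr2a, chr11:69758604-69758753, minus strand: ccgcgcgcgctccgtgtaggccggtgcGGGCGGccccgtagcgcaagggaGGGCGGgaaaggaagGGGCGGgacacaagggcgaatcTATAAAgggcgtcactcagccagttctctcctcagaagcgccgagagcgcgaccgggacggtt
Rtn3, chr19:7483262-7483411, minus strand: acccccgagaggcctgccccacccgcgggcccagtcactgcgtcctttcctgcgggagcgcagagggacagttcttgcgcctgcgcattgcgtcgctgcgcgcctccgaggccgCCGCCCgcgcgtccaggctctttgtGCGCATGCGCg
Rsrp1, chr4:134923505-134923654, plus strand: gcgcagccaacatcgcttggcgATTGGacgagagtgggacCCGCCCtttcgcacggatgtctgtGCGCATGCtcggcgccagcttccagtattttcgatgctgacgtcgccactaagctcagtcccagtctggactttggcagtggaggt
Srsf5, chr12:80945379-80945528, plus strand: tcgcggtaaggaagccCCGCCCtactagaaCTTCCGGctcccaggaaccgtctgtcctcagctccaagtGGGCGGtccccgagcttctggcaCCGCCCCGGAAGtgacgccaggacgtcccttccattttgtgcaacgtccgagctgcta
Eef1a1, chr9:78481695-78481844, minus strand: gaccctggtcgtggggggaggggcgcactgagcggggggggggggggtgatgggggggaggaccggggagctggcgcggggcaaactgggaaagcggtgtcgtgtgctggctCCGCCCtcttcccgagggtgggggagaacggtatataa
Rps12, chr10:23787180-23787329, minus strand: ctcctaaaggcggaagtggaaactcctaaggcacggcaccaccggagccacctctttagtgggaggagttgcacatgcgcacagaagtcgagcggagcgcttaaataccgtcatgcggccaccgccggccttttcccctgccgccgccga
Ctnnb1, chr9:120933458-120933607, plus strand: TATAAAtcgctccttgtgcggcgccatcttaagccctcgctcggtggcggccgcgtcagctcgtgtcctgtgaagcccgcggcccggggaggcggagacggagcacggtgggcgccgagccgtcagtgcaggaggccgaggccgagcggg

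The summit of Polr2a lay 39 bp downstream of its listed start, past the last base printed. Those of Rtn3 and Rsrp1 lay 18 and 26 bp downstream of theirs, within the printed stretch. For Srsf5 the distance was 64 bp, for Eef1a1 99 bp and for Rps12 11 bp. Ctnnb1 differed, since its summit lay 94 bp inside the gene boundary but 84 bp upstream of the listed start that is printed. The Polr2a stretch held a TATA box and 3 GC boxes, Srsf5 held 3 GC boxes and 2 ETS cores, and Rps12 held none of the 10 elements.

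Summits at gene starts were concentrated a short way into the gene. Counted in steps of 50 bp from the boundary, the 1023 start members numbered 123 in the first step, 241 in the next, then 229 and 143. Farther in, the counts per step were between 32 and 68. The median distance was 126 bp, and 478 summits (46.7%) lay 50 to 150 bp inside. Outside the start the 238 peaks were spread more evenly, with 54 in the first 50 bp, 23 to 34 in each of the next 5 steps and 5 to 11 in each of the last 4. The 246 members of unassigned direction had the same median distance as the start members, 126 bp. The 30 end members lay deeper, at a median of 346 bp from the end, and 25 of them (83.3%) were more than 250 bp in.

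**Figure D1:**
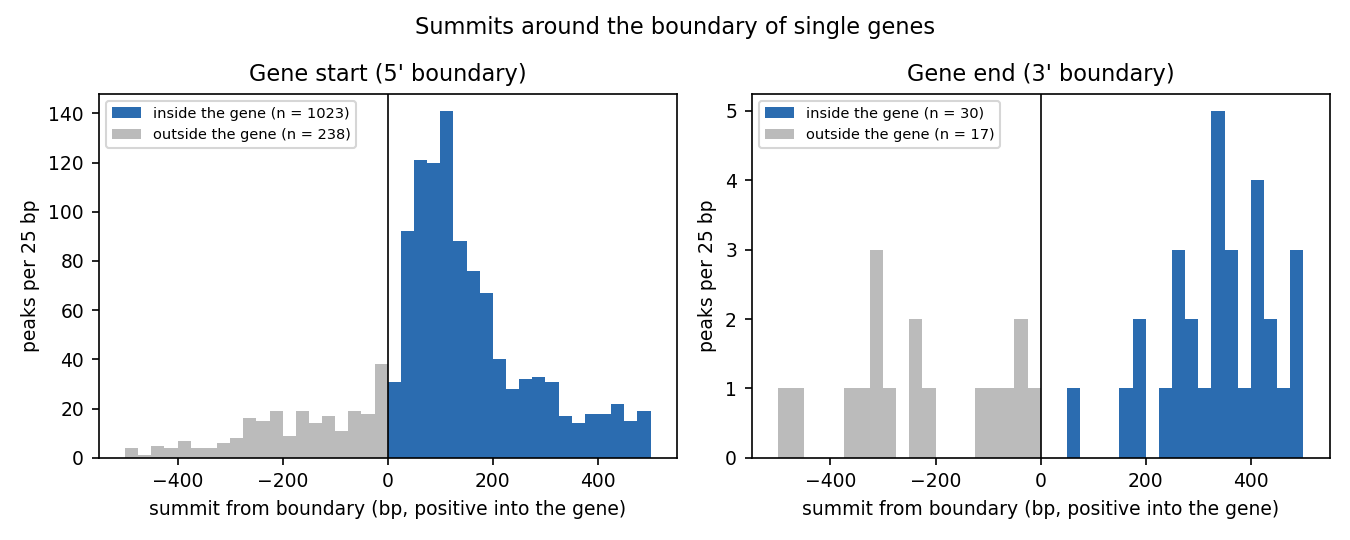
Number of summits per 25 bp against their distance from the gene boundary (bp, positive into the gene), at gene starts (left) and gene ends (right), for inside peaks (blue) and outside peaks (grey). The 1023 inside start summits rise steeply past the boundary and crowd between 50 and 150 bp, while the 30 inside end summits lie mostly over 250 bp in.

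An annotated gene begins at the outermost of its transcripts, so the distance to the nearest listed start of the gene was also taken. Of the 1023 start members, 927 (90.6%) had their summit downstream of that start, at a median of 95 bp over all 1023, and 757 (74%) lay 1 to 200 bp downstream. The table does not list a start near every gene boundary. Where it had one within 50 bp of the boundary (809 members), 789 summits (97.5%) were downstream, with a median of 103 bp and quartiles of 59 and 167 bp. The rule takes summits on the gene's side only, so this direction is nearly fixed by the choice of members and is given as a description. Of the 217 start members more than 250 bp inside, 55 (25.3%) had a further listed start at most 200 bp upstream of the summit. Ubb, a polyubiquitin gene, and Eif5a, which encodes a translation factor, had their nearest start on the other side. Their summits were 396 and 360 bp inside the gene, but 164 and 212 bp upstream of the nearest listed start.

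The peak intervals were short. The median width of a start member was 173 bp, and its interval reached from a median of 44 bp to a median of 252 bp into the gene. The interval covered the gene boundary itself in 304 of 1023 start members (29.7%, 27 to 32.6%) and in 1 of 30 end members. Of the 1299 members, 15 (1.15%, 0.701 to 1.9%) were 1 kb wide or more, against 4.33% of all peaks in the list. In the same sparse windows the share was 1.54% (0.659 to 3.55%) for outside peaks and 2.73% for peaks deep inside genes. The low share was therefore not particular to the members. The widest was at Rbm25, a splicing regulator on chromosome 12 (2217 bp, fold 4.63). Hsp90ab1, a cytosolic HSP90 chaperone, followed with 1228 bp, then Rrs1, a ribosome assembly factor, with 1132 bp, Rsrp1 with 1109 bp and the gene model Gm40892 with 1105 bp.

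Most members were weak. Their fold enrichment, a value of the authors' peak caller, had a median of 2.13, with 10th and 90th percentiles of 1.86 and 3.13, and the median −log10 q was 3.64. A fold of at least 3 was reached by 150 members (11.5%, 9.92 to 13.4%), of at least 4 by 39 (3%) and of at least 5 by 18 (1.39%). The 325 outside peaks had the same median of 2.13, with 11.1% at 3 or more. The 6232 peaks deep inside genes, more than 1 kb from any boundary, had a median of 2.09, with 13.2% at 3 or more and a maximum of 26, where the highest member was 7.99. The lowest members, at Aaas, Akirin1 and Gnb1, had a fold of 1.77 and a −log10 q of 1.31. The rule's limit did not mark a change in strength: just inside 500 bp, Tmem41b (497 bp), Ier5l (498 bp) and Rab5b (499 bp) had folds of 1.86, 1.91 and 1.95, and just beyond it Efnb2 and Pard3 (502 bp each) and Rcc2 (508 bp) had 1.95, 1.95 and 2.09. The 13 members in windows of 29 peaks had a median fold of 2.13, and the 27 excluded peaks of the same kind in windows of 30 had 2.18.

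**Figure D2:**
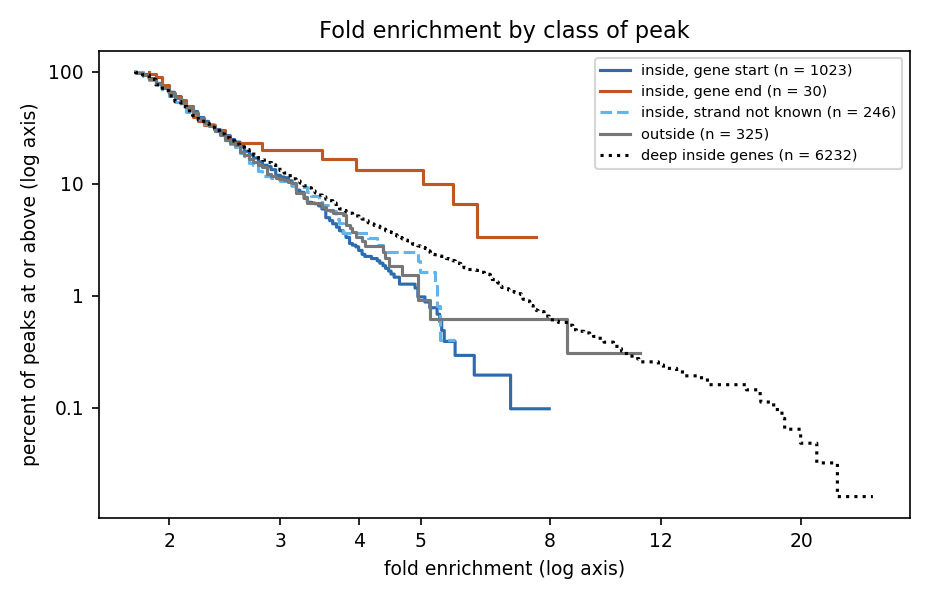
Percent of peaks at or above each fold enrichment (both axes logarithmic) for inside peaks at gene starts, at gene ends and of unassigned direction, for outside peaks and for peaks deep inside genes. The classes run together up to a fold of about 3, and above it the 30 end members and the deep peaks hold the larger shares.

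Strength went with position at the start. Start members with a summit in the first 50 bp had a median fold of 2.22, and 25 of 123 (20.3%) reached 3. Between 50 and 149 bp the median was 2.18, and 66 of 470 (14%) reached 3. It was 2.13 between 150 and 299 bp, with 16 of 276 (5.8%). In the last stretch, to 500 bp, the median was 2, with 11 of 154 (7.14%). These are values of 1 list, and no test was made on them.

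The folds of the members were not continuous. Of 1299, 1296 (99.8%) were whole multiples of 0.0454 within rounding, as were 98% of all peaks in the list, and each of the 77 values they took had a single −log10 q. The 3 members off this scale were all at gene ends: Duxf3, a copy of the double-homeobox gene that switches on genes of the 2-cell embryo (fold 7.6, −log10 q 129), its neighbour Gm4981 (fold 5.63, −log10 q 51.1), and the gene model Gm32584 on chromosome 5 (fold 6.13, −log10 q 475). Duxf3 and Gm4981 lie in an array of similar copies, where the authors' alignment could divide reads between copies, so their values are uncertain. Polr2a had a higher fold than these 3 with a −log10 q of 92.7. Folds that differ by less than 0.0454 cannot be ordered.

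Of the 15 members of highest fold, 8 were at gene starts, 4 had no assigned direction and 3 were at gene ends. Most were at genes for transcription, translation, ubiquitin or chaperones. Polr2a led with a fold of 7.99 (peak at chromosome 11, 69757892 to 69758877). Eif5a, on the same chromosome, had 6.94. Ubb followed with 6.08. Ctnnb1 had 5.67 and Eif4a2, an RNA helicase of translation initiation, 5.45. Rtn3 reached 5.4, and 5.36 was given both to Hnrnpab, an RNA-binding protein, and to Hspa8, the constitutive HSP70 chaperone. Rrs1 and Rsrp1 had 5.31 and Rpl3, a protein of the large ribosomal subunit, 5.26. The 3 at gene ends were Duxf3, Gm32584 and Gm4981.

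The 30 end members were a mixed set. After the 3 named above, the highest were Slc30a4, a zinc transporter (fold 5.04), Gm40892 (3.95) and Lta4h, an enzyme of leukotriene synthesis (3.49). Ppp2r5a, a regulatory subunit of protein phosphatase 2A, had 2.81, and Nrtn, a neurotrophic factor, had 2.5. These last 2, and Hspd1 below, were picked after their values were seen. Their median fold was 2.16, close to the 2.13 of the start members, but 6 of 30 (20%, 9.51 to 37.3%) reached 3. Genes with an end member were shorter, with a median of 10496 bp against 25083 bp for genes with a start member.

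Within the sparse windows, most of these genes held a single peak. The 1299 members fell on 1247 genes. In 971 of these (77.9%, 75.5 to 80.1%) the member was the only sparse-window peak with its summit in the gene. Peaks in denser windows that a gene also reaches into were not counted. At least 2 members stood in 50 genes (4.01%). The gene Rbmxl2, an RNA-binding protein of the germ line, had 4 along its 1472 bp, with folds of 2.04, 2, 2 and 1.91. A member at each end was found in 7 genes. Rplp0, which encodes a protein of the ribosomal stalk, had 4.27 at its start and 2 at its end. Set, a histone chaperone, had 3.72 and 2.09, and Olfr209, an olfactory receptor, 2.54 and 2.36. Cdv3 had 2.5 and 2.18, Rbmxl2 2.04 and 2, and Tuba1a 2.04 and 1.95, while the gene model Gm52606 had the lower fold at its start, 2 against 2.27.

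Of the 15827 autosomal protein-coding genes that the rule could take, 1247 held a member, which is 7.88%. The counts of the gene groups below are to be read against this share. The groups were chosen with earlier results of these data known, so they carry no test. A gene without a member can still have had a peak just outside, or one shared with a neighbouring gene.

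Among transcription genes, 9 of 29 genes for RNA polymerase II subunits and general initiation factors (31%) held a member, with a median fold of 2.81. After Polr2a came Taf13, a TFIID subunit (3.86, 64 bp inside), Gtf2b, the initiation factor TFIIB (3.27, 7 bp), and Taf12 (2.95, 159 bp). Ccnh and Ercc2, both of TFIIH, had none. Of 40 genes of pausing, elongation and Integrator, 14 (35%) held one, but with a lower median of 2.04. Cdk12, a kinase of the polymerase tail, had 3.49, and the Integrator genes Ints6, Ints10 and Ints14 had 3.31, 2.59 and 2.27. Aff1 and Ccnt1 had no member, and 5 of the 26 without one had a peak of the other boundary classes.

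RNA-processing genes held 16 of 47 for splicing and hnRNP proteins (34%, median fold 2.77). The SR proteins Srsf5 (4.95) and Srsf3 (4.49) and the related Tra2b (3.86) stood behind Hnrnpab, and Ddx5 and Ddx17, both RNA helicases, had none. For cleavage and polyadenylation it was 4 of 17 (23.5%, median 2.22), led by Clp1 (2.9, 11 bp inside), with Rbbp6 (2.36), Papola, the poly(A) polymerase (2.09), and Xrn2, the exonuclease of termination (1.91), all at gene starts.

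Translation genes stood highest. Of 65 cytosolic ribosomal protein genes that the rule could take, 40 (61.5%) held a member, with a median fold of 3.04. Rpl3 (5.26), Rps12 (4.63), Rplp0 (4.27) and Rps19 (4.08) led, and Rpl10l and Rpl12 were without. Of their 42 members at starts, ends and unassigned boundaries together, 32 (76.2%, 61.5 to 86.5%) lay 50 to 150 bp inside, against 582 of all 1299 members (44.8%). The cell cycle genes below had a like share, 6 of 8 (75%, 40.9 to 92.9%). Of the 25 genes without a member, 9 had a boundary peak of another class. For translation initiation and elongation factors it was 18 of 41 (43.9%, median 2.7), with Eif5a, Eif4a2 and Eef1a1 (5.08) ahead of Eif1, a start-codon selection factor (4.18). Eef1b2 and Eef1g had no member. Nucleolar and ribosome-assembly genes counted 7 of 22 (31.8%, median 2.86), among them Nop56 (3.77) and Nop58 (2.86), core proteins of snoRNA particles, and nucleolin, Ncl (3.49).

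Protein folding and turnover followed. Chaperone and heat shock genes held members in 15 of 36 cases (41.7%, median 2.45), led by Hspa8, Hsp90ab1 (4.99), Dnajb9 (3.09) and Hsph1 (2.72). Bag1 and Bag3, co-chaperones of HSP70, had none, and Hspd1, the mitochondrial HSP60, was represented by an end member (2.45). Ubiquitin and its E1 and E2 enzymes counted 15 of 35 (42.9%, median 2.36), where Ube2g1 and Uba2 each had 3.54 behind Ubb. Proteasome subunits were much nearer the background, with 4 of 28 (14.3%, median 2.18), and Psmd5 (2.68) was highest. The amino-acid and ATF4 response had 5 of 18 (27.8%, median 1.95), with Atf4, its transcription factor, at 3.95.

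**Figure D3:**
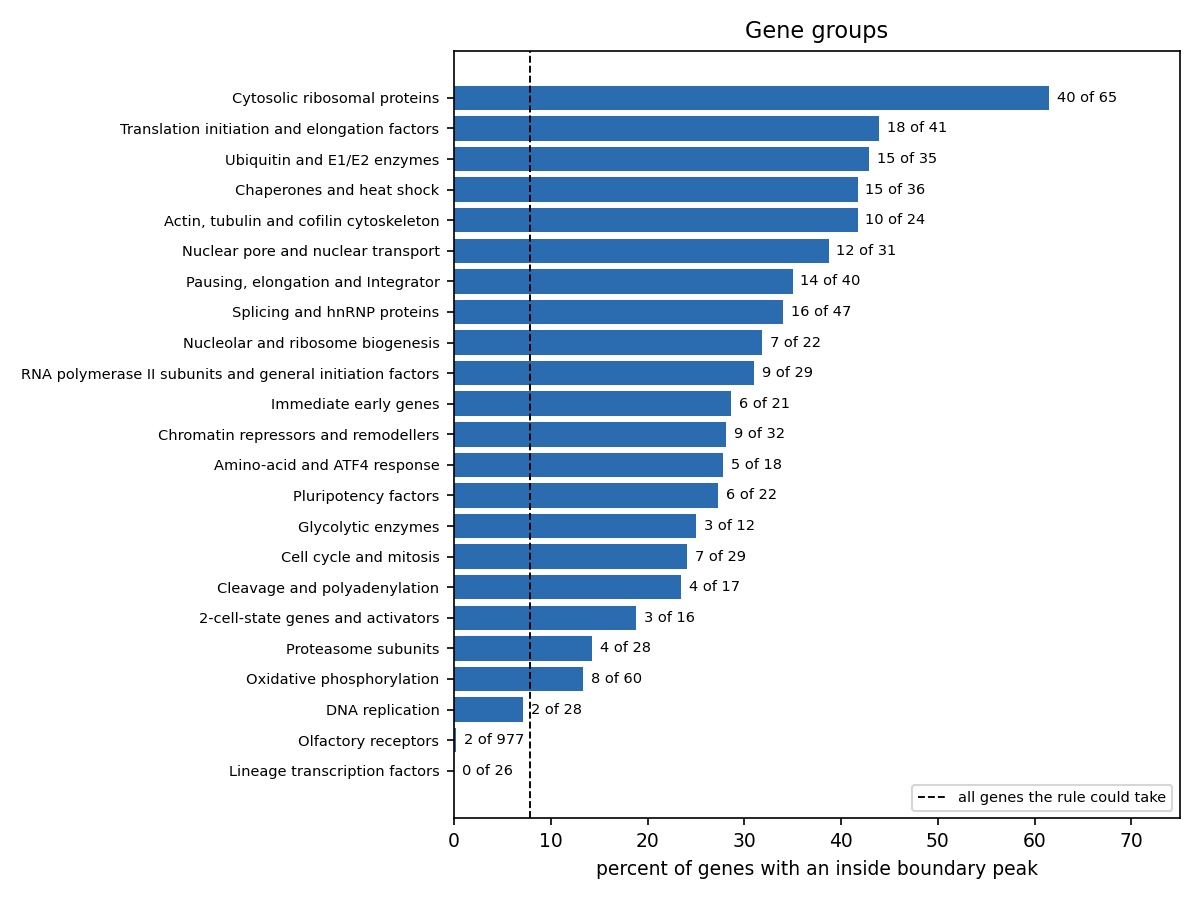
Percent of the genes in each group that held an inside boundary peak, among those the rule could take (counts beside the bars), with a dashed line at 7.88% for all such genes. Ribosomal protein genes stand highest at 61.5%, and olfactory receptor and lineage factor genes lie below the line.

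Cytoskeletal and metabolic genes differed from each other. Of 24 genes of actin, tubulin and their partners, 10 (41.7%) held a member, with a median of 2.86. Cfl1, the actin-severing cofilin, had 4.36, Tuba1b 3.63, Stmn1, which destabilises microtubules, 3.31, and Tubb4b 3.22, whereas Actb had none. Glycolytic enzymes counted 3 of 12 (25%), Pkm (3.81), Pfkl (2.27) and the glucose transporter gene Slc2a1 (2). Oxidative phosphorylation had 8 of 60 (13.3%, median 2.18), led by the ATP synthase genes Atp5g2 (3.13) and Atp5b (2.95). Nuclear pore and transport genes counted 12 of 31 (38.7%, median 2.31), with the importin Kpna2 (2.95) and the exportin Xpo1 (2.68) at the top.

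Cell cycle genes held 7 of 29 (24.1%, median 2), with Cdk4 (2.27), Ccnb2 (2.13), Cdk1 (2) and Top2a (2). DNA replication genes were at the background with 2 of 28 (7.14%), Orc2 (2.36) and Rpa2 (2.04). Chromatin repressors and remodellers counted 9 of 32 (28.1%, median 2.22). Setdb1, the methyltransferase of histone H3 lysine 9, had 2.81, Zmym2 2.68, Kdm1a, a histone demethylase, 2.41 and Rif1 2.36. Immediate early genes had 6 of 21 (28.6%), with 4 values close together: Btg1 3.13, Dusp5 3.09, Dusp1 3.04 and Btg2 3.

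Pluripotency genes held members in 6 of 22 cases (27.3%, median 2.41). Klf4 had 3.13 with its summit 37 bp inside, Tfcp2l1 2.54, Fgf4 2.41 and Sox2 2.41, the last 469 bp in. Of the stem cell markers fixed for a check of the cell type, Klf4 and Sox2 were members and Esrrb was not. Pou5f1, Nanog and Zfp42 lay in windows of 30 or more peaks, which the rule leaves out. There Nanog (fold 2.5) and Zfp42 (2.41) had a peak just inside a boundary, and Pou5f1 had no peak in the gene. A peak list gives no expression, so the cell type could not be checked further. The genes of the 2-cell-like state counted 3 of 16 (18.8%): Duxf3, with its end member, Tmem92 (2) and Usp17le (1.82). No lineage transcription factor held a member (0 of 26), Cdx1 included. Among olfactory receptors, genes of sensory neurons, it was 2 of 977 (0.205%), Olfr209 and Olfr312 (2.13).

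**Figure D4:**
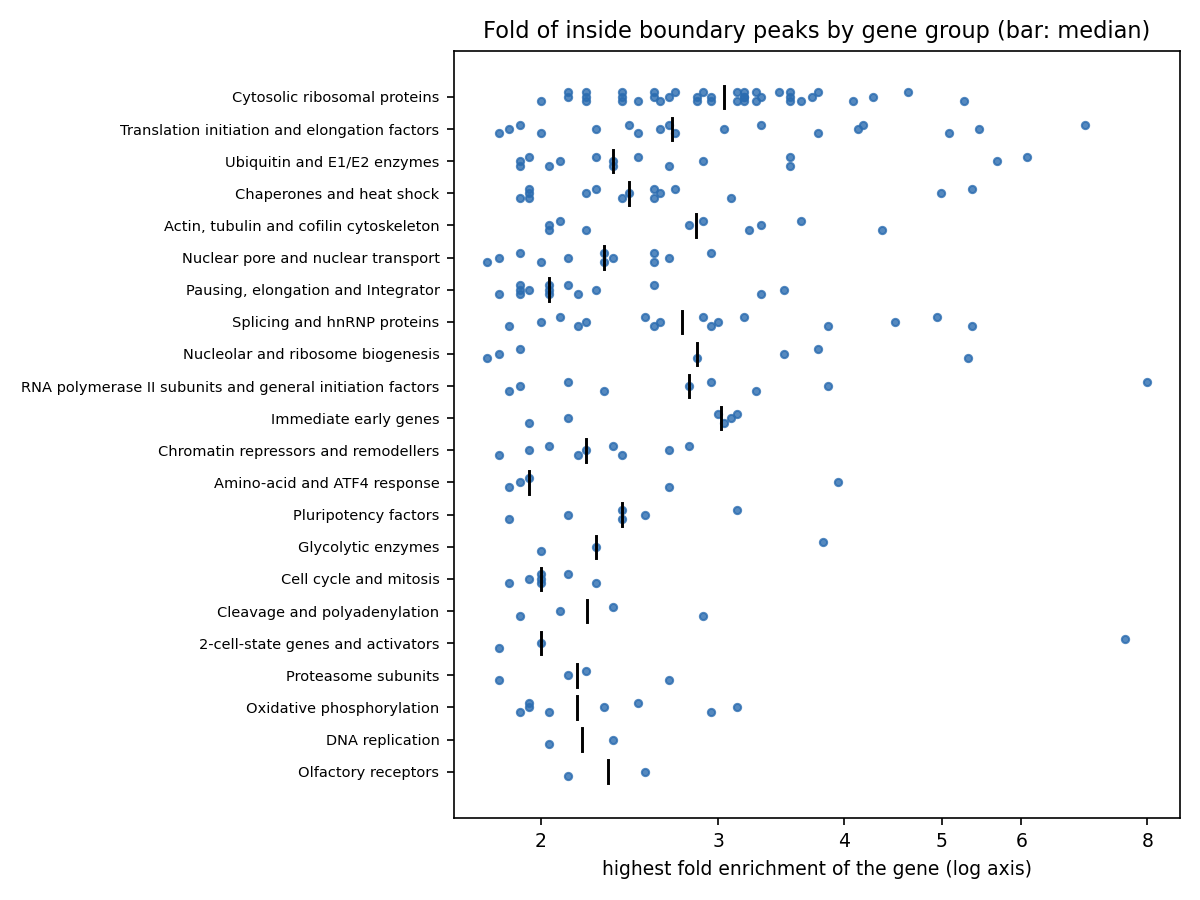
Highest fold enrichment (log axis) of every gene that held an inside boundary peak, by gene group, with a bar at each group's median. Ribosomal protein genes lie mostly between 2 and 4, and single genes stand far above the rest of their group, such as Polr2a at 7.99 and Duxf3 at 7.6.

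The promoters of genes with a start member were rich in CpG. A promoter here is the RefSeq stretch of 250 bases before and 50 after the listed start nearest the gene boundary, called CpG-rich when its observed to expected CpG ratio was at least 0.6 and its GC content at least 50%. This held for 861 of 987 genes with a start member (87.2%), against 6140 of 12537 genes that the rule could take (49%). Put the other way, 14% of the CpG-rich genes and 1.97% of the other genes held a start member. Genes with an end member had such a promoter in 15 of 30 cases (50%), less often than genes with a start member (odds ratio 6.83, adjusted two-sided Fisher exact p = 4.86e-06). The 7 genes with a member at both ends stand in both groups, and without them the shares were 87.4% and 47.8% (odds ratio 7.6, unadjusted Fisher exact p = 8.09e-06). Genes with an outside start peak had one in 213 of 233 cases (91.4%), and the difference from the inside start members did not pass (odds ratio 0.642, adjusted two-sided Fisher exact p = 0.0917). Of these genes 57 had both kinds of peak and were counted in both groups, and without them the odds ratio was 0.701 (unadjusted Fisher exact p = 0.217). The difference passed when the ratio was set at 0.75, with 68.6% of the inside and 82.4% of the outside genes (odds ratio 0.466, unadjusted Fisher exact p = 1.83e-05), and also without the shared genes (odds ratio 0.48, unadjusted Fisher exact p = 0.000228). The median ratio was 0.856 for inside and 0.92 for outside start peaks, and the median GC content 63.3% and 68%. A listed start lay within 50 bp of the gene boundary for 809 of the 1023 start members (79.1%). For the others the nearest listed start, and so the stretch scored, lay farther from the boundary. The element counts below use the same stretches.

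CpG-rich promoters became less frequent with depth into the gene, from 91.1% for summits in the first 50 bp, through 90% and 84.4% in the next 2 stretches, to 81.8% in the last. The start members whose scored stretch was not CpG-rich included some of the strong ones. Eif5a (6.94) had a ratio of 0.786 but a GC content of 43.3%, with the summit 212 bp upstream of its nearest listed start. Rbm25 had a ratio of 0 around its nearest listed start, with the summit 3379 bp upstream of it. For Rbm25 the stretch scored lay far from the peak, and for Eif5a it may not be the one beside the peak. Set (3.72) had a ratio of 0.549.

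**Figure D5:**
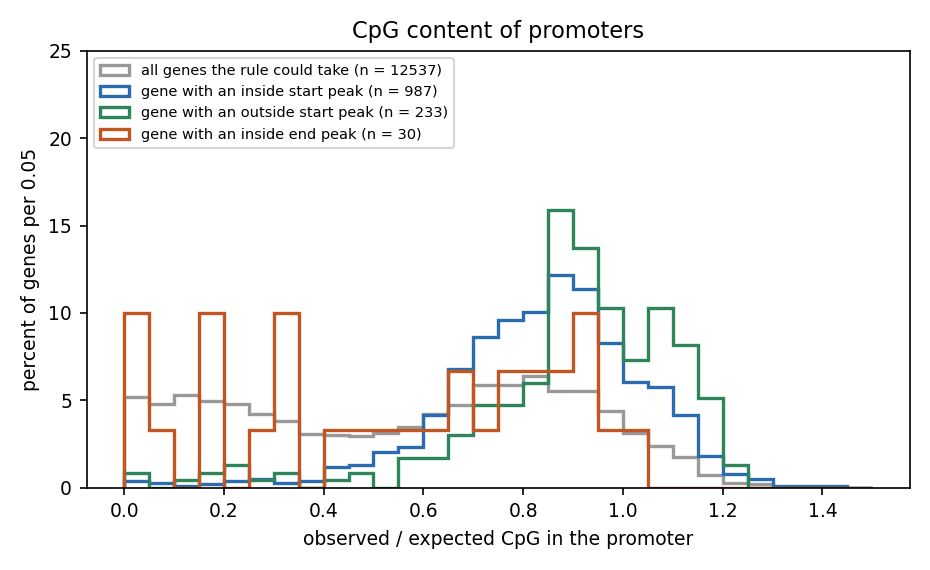
Distribution of the observed to expected CpG ratio of promoters, in percent of genes per step of 0.05, for genes with an inside start peak, an outside start peak, an inside end peak, and all genes the rule could take. Genes with a start peak lie around medians of 0.856 (inside) and 0.92 (outside), while all genes spread from 0 to above 1.

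Short sequence elements were counted on both strands over the 300 bases of each promoter, overlapping matches included. The GC box, read by Sp and Klf factors (GGGCGG), was in 74.4% of the promoters of genes with a start member and in 48.5% of all promoters of genes the rule could take. Among CpG-rich promoters only, the shares were 78.6% and 76.8%. The NRF1 element (GCATGCGC) was in 9.02% against 3.76% of all, and in 9.52% against 6.48% within CpG-rich promoters. For the E-box (CACGTG) these shares were 14% against 8.24% and 14.9% against 11.9%. The ETS core (CCGGAAG) stood at 18% against 12%, but at 18.7% against 19.4% within CpG-rich promoters. Genes with an outside start peak had the GC box in 79% of promoters, the NRF1 element in 15%, the E-box in 10.3% and the ETS core in 18.5%, so shares above those of all genes were not limited to inside peaks.

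The TATA box (TATAAA) was in 8% of start-member promoters against 13.5% of all, yet in 7.08% against 4.77% within CpG-rich ones, and in 18 of the 118 genes whose start member had a fold of at least 3 (15.3%), Polr2a among them. The CCAAT box differed little, at 38.2% against 38.5% of all and 37.3% against 37.1% within CpG-rich promoters. The YY1 core (ATGGCGGC) was in 6.48% against 3.25%, but in 7.08% against 5.81% within CpG-rich promoters, and in 8.58% for outside start peaks. The cyclic AMP response element (TGACGTCA) was in 3.85% against 2.38%, and in 4.07% against 3.75% within CpG-rich promoters. The heat shock element (TTCNNGAA) was in 6.08% against 7.68%, with the order turned within CpG-rich promoters (5.57% against 5.31%). The octamer (ATGCAAAT) was in 1.52% of both, and in 1.51% against 1.12% within CpG-rich promoters. A match is a description of these letters and not evidence that a factor was bound there.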

How the data were processed

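NELFA ChIP-seq was represented by 1 deposited peak list for 4 precipitated and 3 input libraries. Trim Galore 0.4.2, Bowtie2 2.2.9, SAMtools 1.4, MACS2 (no version) and mm10 are named in the submitters' processing notes. The sources used here do not give peak-call settings or how libraries were pooled. In the deposited list, fold enrichment is a linear ratio, significance is the −log10 of q, and the display score is 10 times the −log10 q. None was renormalised.

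Summits were the deposited start plus offset. Each was assigned to the nearest protein-coding boundary in the RefSeq gene table (GRCm38.p6). Strand and promoter sequence came from the RefSeq promoter table, matched by gene ID. The members and gene lists were chosen with earlier results of these data known. Named genes were the 15 of highest fold, up to 4 with and 2 without a member per list, the 6 strongest end members, the 5 widest, genes with members at both ends, the 3 lowest and the 3 on each side of the 500 bp limit. Not all that this rule takes are described, and some are not reported here. Of 23 gene lists and 10 elements, counts only are given. Shares carry 95% Wilson intervals, which cover counting error only. With no counts per peak, depth and its precision are unknown.

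Fisher exact tests were run for 3 comparisons, with Benjamini-Hochberg adjustment. The classing was tested on simulated data: of 800 planted summits, 100% were recovered. Python 3.11.15, numpy 2.4.6, pandas 2.3.3, scipy 1.17.1, statsmodels 0.14.6 and matplotlib 3.10.9 were used.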

Additional observations from a re-analysis of the deposited data

How the results depend on the processing

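The excess of starts among inside over outside peaks had an odds ratio of 2.44. It kept its direction and passed (unadjusted Fisher exact test) with windows of 250 and 1000 bp, in windows of under 20 peaks, in all autosomal windows, with no other boundary within 5 kb, with 1 peak per gene, in genes of at least 2 kb, and with folds on the common step only, which was chosen after seeing the data. It also passed without the 82 genes that had both an inside and an outside peak (2.57), and the other comparisons were likewise repeated without shared genes, again chosen after seeing the data. It kept its direction without passing at a −log10 q of at least 4 (2.45) and at or above the median fold (2.11), where fewer peaks remain. The start shares themselves depended on the windows. In all autosomal windows they were 89.2% for inside and 73.7% for outside peaks, against 97.2% and 93.3% in the sparse windows. The CpG-rich share of inside against outside start genes passed at a ratio of 0.75 (odds ratio 0.466, and 0.48 without shared genes). It stayed below 1 without passing at a −log10 q of at least 4 and, at a ratio of 0.6, without shared genes. The comparison of start and end members passed under each of its 4 alternatives. The number of members was 2338 in all autosomal windows, 568 at a −log10 q of at least 4, and within 1.5 times of 1299 otherwise. No paired analysis was possible because the list has no column per library. The unassigned direction of 246 members, 41 of them on chromosome 18, limits the split into starts and ends.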

Other observations

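Many of the stronger members belonged to none of the gene groups: of the 150 members with a fold of at least 3, 90 (60%) were at other genes, a lower share than the 1073 of 1299 (82.6%) among all members. The following were picked after their values were seen and carry no test. Small chromatin proteins were among them, with Ptma (prothymosin α) at a fold of 4.9, H2az1 (histone variant H2A.Z) at 3.99, Set at 3.72, Hmgb1 at 3.27 and Hmgn2 at 3.09. Iron and redox genes included Tfrc, the transferrin receptor (3.54), Ftl1, the ferritin light chain (3.54), and Sod1 (3.27). Sirt1, a protein deacetylase, had 4.31, and Oga, which removes O-GlcNAc from proteins, had 5.17.

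Gene length and chromosome gave uneven shares. Genes under 5000 bp held a member in 4.75% of cases, those of 5000 to 20000 bp in 7.91%, those of 20000 to 50000 bp and of 50000 to 100000 bp in 10.5% each, and longer genes in 5.37%. Among chromosomes the share ran from 5.35% on chromosome 7 to 18.7% on chromosome 8, where 17 of the 91 genes open to the rule held a member. Few genes were open to the rule on chromosomes 8 (91) and 6 (132), against 490 to 1646 on each of the others. The 18.7% therefore rests on a small set left by the limit on peaks per window and the other conditions, and was not tested.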
